A study of Mus musculus with 4 samples.

Results

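Ciliated cells of the airways made up 66 of the 44835 lung cells kept from 4 single-cell RNA libraries. They were chosen by their transcripts: a kept cell counted as ciliated where at least 3 of Foxj1, Ccdc153, Tmem212, Dynlrb2 and Rsph1 were detected, with at most 1 molecule of the endothelial genes Cdh5 and Cldn5 together and none of the leukocyte gene Ptprc or the fibroblast gene Col1a2. The lungs came from wild-type (WT) mice and from Vegfr2Y949F mice, which carry, as the name says, a phenylalanine in place of tyrosine 949 of VEGF receptor 2, the product of Kdr. All mice were C57BL/6J, were 6 to 8 weeks old at the start, and had spent 6 weeks in hypoxia; lungs kept in normal air were not analysed here. Each library held a suspension of digested lung from 2 mice, with red blood cells lysed. The set letters A and B in the library names are the labels' own. The 4 libraries gave 11 ciliated cells in WT A, 13 in Vegfr2Y949F A, 27 in WT B and 15 in Vegfr2Y949F B.

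Ciliated cells line the conducting airways and carry many motile cilia, whose beat moves mucus out of the lung. A motile cilium is built on a basal body and holds a microtubule core, the axoneme, with outer and inner dynein arms as motors and radial spokes and a central pair as regulators of the beat. Intraflagellar transport carries axonemal parts along the cilium, and the transcription factors Foxj1 and the Rfx family switch on the genes of motile cilia. Club cells, the secretory neighbours of ciliated cells, release Scgb1a1, and alveolar type 1 cells form the thin surface for gas exchange. Both were gated from the same libraries for comparison, as 106 club cells and 1010 alveolar type 1 cells.

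The gate separated the ciliated cells sharply. Among cells that met the limits on Cdh5, Cldn5, Ptprc and Col1a2, 60 cells had all 5 gate genes, 5 had 4 and 1 had 3, while 1 cell had 2, 115 had 1 and 3130 had none. Another 20 cells had at least 3 gate genes but were left out because they held molecules of the other 4 genes. The ciliated cells were deeply read: their median was 13065.5 unique molecular identifiers (UMIs, each counting 1 captured transcript) and 4018 genes, against a median of 43824 UMIs in club cells and 4325 in alveolar type 1 cells. Kept cells of the 4 libraries had medians of 4536 to 5742 UMIs. Any 2 libraries shared 28 to 54 cell barcodes.

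Promoter sequence is shown first, because the Rfx factors bind a known element, the X-box, and a short core of it could be searched by its letters in the 300 bases around gene starts (250 before to 50 after, RefSeq, GRCm38.p6). The core element GTTGCC, on either strand, was present in 14.1% of all 27025 genes with a window and in 16.9% of the tested ones (1026 of 6066). It was present in 26.5% of the genes higher in ciliated than in club cells (400 of 1508) and in 12.6% of the genes lower (142 of 1128), by the test given below. The following stretches lie before the start, outside annotated exons and on the strand of the gene, and belong to 5 ciliary genes with the long form GTTNCCNNNGNAAC, on either strand, and to 2 of the gate genes with the core alone; capitals mark the match.
Cfap44, chr16:44394737-44394795, plus strand: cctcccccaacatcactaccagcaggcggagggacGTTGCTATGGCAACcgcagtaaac
Iqca, chr1:90153488-90153571, minus strand: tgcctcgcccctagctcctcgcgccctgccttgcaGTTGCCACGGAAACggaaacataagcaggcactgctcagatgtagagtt
Spag16, chr1:69826832-69826915, plus strand: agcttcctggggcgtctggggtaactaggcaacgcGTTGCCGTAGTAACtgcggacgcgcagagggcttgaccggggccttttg
Ccdc151, chr9:22002635-22002703, minus strand: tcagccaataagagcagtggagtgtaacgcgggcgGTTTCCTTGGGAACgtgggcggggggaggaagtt
Bbs7, chr3:36613478-36613545, minus strand: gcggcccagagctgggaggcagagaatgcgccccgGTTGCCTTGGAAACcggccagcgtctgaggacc
Ccdc153, chr9:44240490-44240565, plus strand: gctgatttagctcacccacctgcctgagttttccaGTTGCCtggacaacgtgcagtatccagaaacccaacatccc
Dynlrb2, chr8:116504929-116504973, plus strand: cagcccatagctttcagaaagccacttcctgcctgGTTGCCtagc

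Cfap44 is an axonemal protein of motile cilia, Iqca and Spag16 belong to the regulators of the beat, Ccdc151 helps to dock the outer dynein arms, and Bbs7 is a subunit of the BBSome, which carries membrane proteins of cilia. The share of genes with the core was larger where the difference from club cells was larger: 19.3% of genes higher by under 2 on the log2 scale (144 of 746), 29.8% of those higher by 2 to 5 (142 of 477) and 40.0% of those higher by over 5 (114 of 285). By gene list it was 53.8% for the BBSome and transition zone (14 of 26), 51.9% for tubulins and proteins inside the microtubules (14 of 27), 44.4% for intraflagellar transport (12 of 27) and 3 of 15 for the outer dynein arm. Only 1 of 28 windows of airway defence and detoxification genes held it (3.57%). The long form, which can overlap the core, was in 0.936% of all genes, 1.45% of the tested ones, 3.45% of those higher than in club cells, 0.621% of those lower and 6.32% of those higher by over 5. The forkhead motif TGTTTAC, of the kind that Foxj1 binds, was in 4.05% of all genes, 3.38% of the tested ones, 3.98% of those higher, 3.46% of those lower and 6.32% of those higher by over 5 (18 of 285). These are matches of letters and not measured binding.

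**Figure D1:**
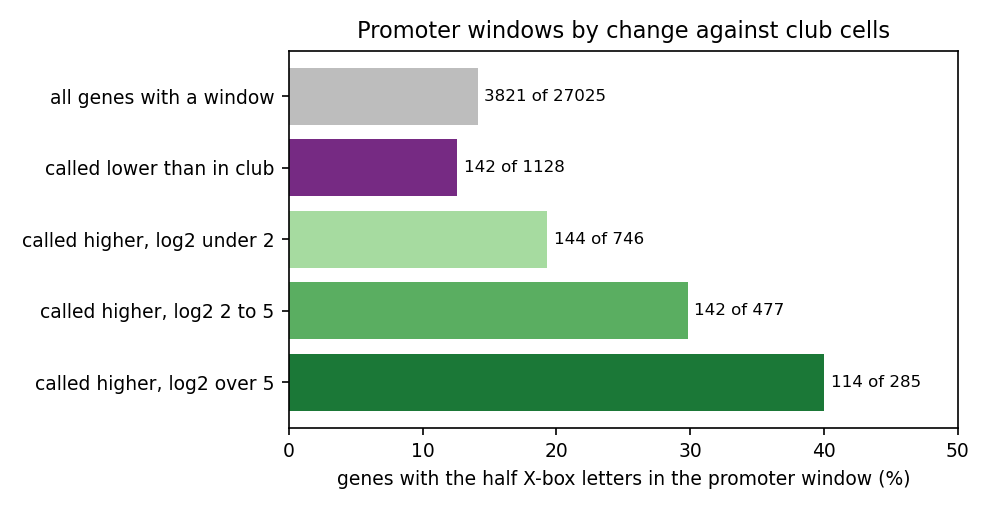
Share of genes (%, horizontal bars from 0) whose promoter window held GTTGCC on either strand, for all genes with a window and for genes called lower or higher in ciliated than in club cells; the count is printed beside each bar. The share goes from 12.6% in genes called lower to 40.0% in genes called higher by over 5 on the log2 scale.

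Before levels are given, 4 of the 66 cells have to be set apart. They held 7131, 59591 and 86904 UMIs of Scgb1a1 in WT B and 40653 in Vegfr2Y949F B. They also held 120 to 131 ciliary genes outside the gate. The lists counted here are dynein arms, dynein assembly, radial spokes and central pair, axonemal tubulins and inner proteins, and other multiciliated cell genes. Scgb1a1 came to 29.89% of the UMIs of all ciliated cells in WT B and 12.92% in Vegfr2Y949F B, and to 0.2128% and 0.03255% without these cells. In club cells it was 56.96% to 58.54%. None of the 66 cells was in the highest 8% of doublet scores of its library. The 4 cells held 25827, 91469 and 153257 UMIs in all in WT B and 84889 in Vegfr2Y949F B, against at most 41826 in the other 62. For 100 UMIs of Scgb1a1 they held 0.514 to 1.4 UMIs of Cyp2f2, and club cells 0.638 to 0.852. Whether they held the RNA of more than 1 cell was not tested. Levels below are therefore CPM, that is, UMIs scaled to a fixed total of UMIs other than Scgb1a1 in each library, over the other 62 cells, a choice made after seeing the data, while the tests use all 66 cells.

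**Figure D2:**
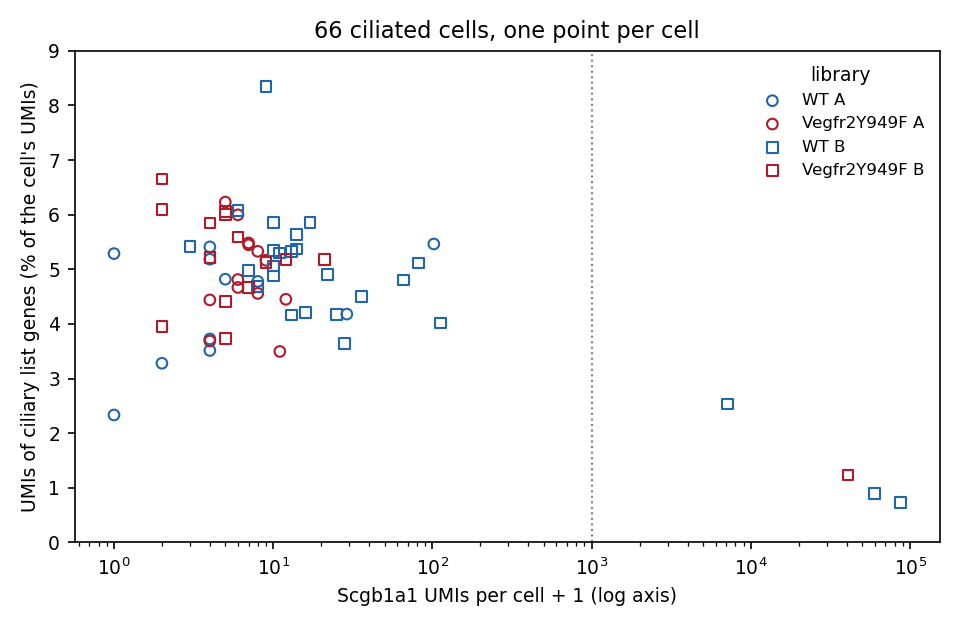
UMIs of Scgb1a1 per cell plus 1 (horizontal, log axis) against the share of the cell's UMIs that came from the ciliary lists named above (vertical, %). There is 1 point per ciliated cell, blue for WT, red for Vegfr2Y949F, circles for set A and squares for set B. The dotted line at 1000 UMIs leaves 4 cells on its right, 3 of WT B and 1 of Vegfr2Y949F B. They have a ciliary share of 0.728% to 2.532%. The share counts Scgb1a1 among the cell's UMIs, so a high count of Scgb1a1 by itself lowers it.

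All 62 cells held transcripts of many ciliary genes. The ciliary lists named above took a median of 5.12% of a cell's UMIs, with a range from 2.33% to 8.35%. A median of 114 of their genes was detected in a cell, from 32 to 142. With intraflagellar transport and the BBSome and transition zone added, the 8 lists held 216 genes outside the gate. Of these, 212 were detected, 166 of them in at least 50% of the cells and 48 in at least 90%. By contrast, 70 of these genes had no UMI in any club cell and 65 none in any alveolar type 1 cell. The number of ciliary genes detected in a cell depends in part on its depth, and UMIs per cell ran from 1437 to 41826. Cells of near-equal depth also differed. A WT A cell with 3343 UMIs had 44 of these genes and a ciliary share of 2.33%. A WT B cell with 3325 UMIs had 68 and 5.11%. Whether such cells differ in state was not tested.

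Foxj1, which encodes the forkhead factor that switches on motile cilia genes (chr11:116330704-116335399, minus strand, mm10), was at 872 CPM in WT A, 786 in Vegfr2Y949F A, 695 in WT B and 556 in Vegfr2Y949F B. It averaged 727 ± 135 CPM (SD, n = 4 libraries), against 0.879 in club cells and none in alveolar type 1 cells. Foxj1, like the other gate genes, was used to choose the cells, so these values describe the choice. Ccdc153 was at 1431, 1655, 1998 and 2097 CPM in the same order of libraries, and Rsph1, a radial spoke protein, at 707, 567, 866 and 786. Dynlrb2, a dynein light chain, was at 1522, 1832, 1406 and 1823 CPM and Tmem212 at 1135, 1406, 1737 and 1823. The genotypes overlapped for Foxj1, Ccdc153, Tmem212 and Rsph1. They did not for Dynlrb2, but the share of all genes without overlap was not counted. No difference between genotypes is read from it.

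Tppp3, a tubulin-binding protein and the marker that the gate did not use, was at 2838, 3067, 2681 and 2792 CPM, a mean of 2844 ± 163. Its level was 27.7 ± 33.1 CPM in club cells and 654 ± 38.8 in alveolar type 1 cells. The fitted difference was 6.44 on the log2 scale against club cells (SE 0.35, adjusted p = 6.265e-13) and 2.04 against alveolar type 1 cells (adjusted p = 1.191e-16). So Tppp3 was present in the alveolar type 1 cells too. Sec14l3 showed the same sharing: 2756 ± 241 CPM in ciliated, 505 ± 66.2 in club and 2182 ± 111 in alveolar type 1 cells, the last difference not passing the test (log2 0.31, adjusted p = 0.1338). Cd24a, a surface protein used to sort ciliated cells, was at 2677 ± 314 CPM, against 764 ± 66.3 in club and 36.4 ± 15.7 in alveolar type 1 cells.

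Several markers of basal, neuroendocrine, tuft and ionocyte cells were at 0, while the club markers Scgb1a1 and Cyp2f2 were not. Scgb1a1 had a UMI in 60 of the 62 cells. No UMI was found in the 62 cells for the basal genes Krt5, Trp63, Krt14 and Ngfr or the neuroendocrine genes Chga and Resp18. None was found either for the tuft genes Trpm5, Pou2f3 and Sh2d6 or the ionocyte genes Foxi1 and Atp6v1g3. Other members of these lists were detected at low levels. The basal list summed to 5.91 to 8.683 CPM per library and the neuroendocrine list to 0 to 8.225. The tuft list summed to 0 to 8.172 CPM and the ionocyte list to 0 to 5.91. The 5 club markers other than Scgb1a1 summed to 1382 to 1631 CPM per library, nearly all of it Cyp2f2, which had a UMI in 60 of the 62 cells, against 55830 to 67920 in club cells. The 6 alveolar type 1 markers summed to 556 to 905 CPM per library, against 34020 to 40970 in alveolar type 1 cells, and the 6 endothelial markers to 34.7 to 115. The gates set part of these sums. Most of the club and alveolar type 1 markers were used to choose those cells. Cdh5 and Cldn5, among the 6 endothelial markers, were limited in ciliated cells. With each cell thinned to 3000 UMIs, Sftpc of alveolar type 2 cells had a UMI in 13.8% of 65 ciliated cells and in 14.7% of 33291 other cells (50.8% and 28.0% before thinning; 1 and 10257 shallower cells left out). The part of free RNA in such shares was not tested.

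**Figure D3:**
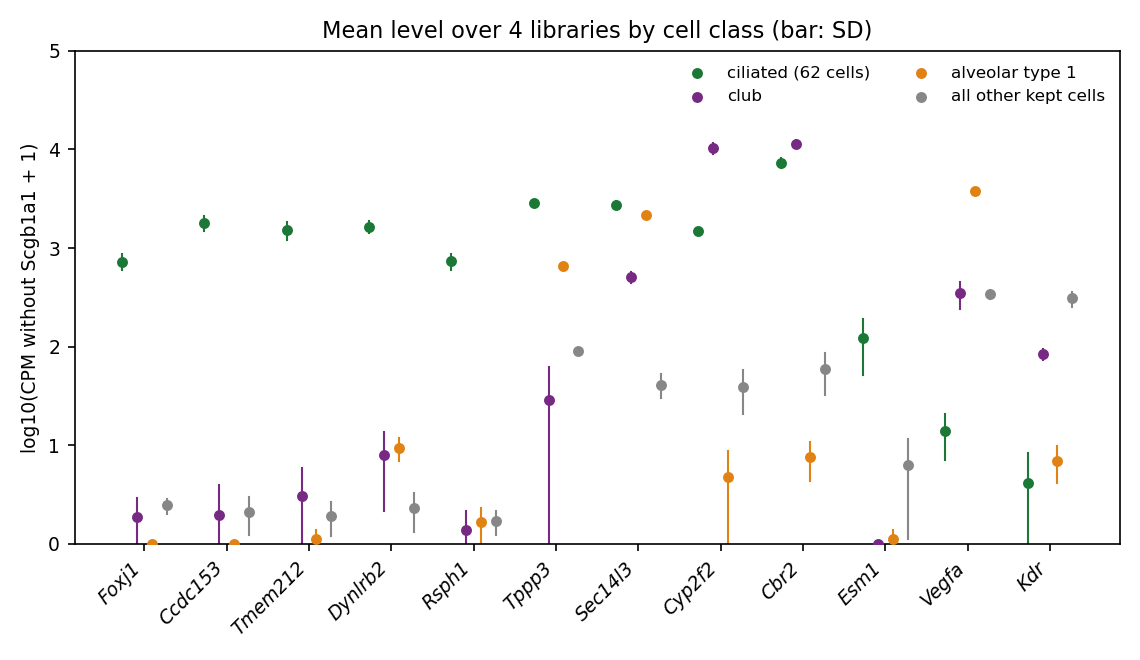
Mean level over the 4 libraries (points, log10 of CPM without Scgb1a1 plus 1; bars, SD) of the 6 markers and 6 further genes in ciliated cells (62 cells), club cells, alveolar type 1 cells and all other kept cells. The 5 gate genes lie above 700 CPM in ciliated cells alone, Tppp3 and Sec14l3 are also high in alveolar type 1 cells, and Vegfa is at 12.9 CPM in ciliated and 3750 in alveolar type 1 cells.

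Compared with club cells, ciliated cells had higher transcripts for most measured parts of the motile cilium and lower ones for secreted and defence proteins. Across 7509 genes tested with edgeR on UMI sums per library, 1855 were higher in ciliated cells (24.7%) and 1428 lower (19.0%), and the median fitted difference was 0.08 on the log2 scale. On the CPM scale used for levels the median gene is 0.50 higher in ciliated cells, where the fit gives 0.06 for the same genes, so directions are taken from the fit. The cells were selected on ciliary genes, so the height of other ciliary genes describes the class and supports nothing beyond it.

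Of the outer dynein arm and docking genes, 15 of 17 tested were higher and none lower, with a median of 7.29 on the log2 scale. Dnah5, an outer arm motor chain (chr15:28203752-28472052, plus strand), was at 280 CPM in WT A, 467 in Vegfr2Y949F A, 450 in WT B and 404 in Vegfr2Y949F B, and had no UMI in club or alveolar type 1 cells. Counting 3 UMIs over all club cells as the floor, it was at least 257-fold higher than in club cells (fitted log2 9.77, SE 0.48, adjusted p = 1.216e-12). Its partner Dnah9 averaged 248 ± 61.1 CPM and Nme9, a further gene of this list, 480 ± 56.9. The ciliary chains differed from their widely used relatives: Dync1h1, the heavy chain of the dynein of the cytoplasm, did not differ from club cells (93.7 ± 14.1 and 67.7 CPM, fitted log2 0.00, adjusted p = 0.9904).

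All 23 tested inner dynein arm and dynein regulatory complex genes were higher, with a median of 7.25. Ccdc39, the molecular ruler of the axonemal repeat (chr3:33812362-33844310, minus strand), was at 625 CPM in WT A, 491 in Vegfr2Y949F A, 515 in WT B and 499 in Vegfr2Y949F B, and at least 325-fold higher than in club cells, which had no UMI of it. Dnah6, an inner arm motor chain, averaged 398 ± 66.3 CPM. Drc1, of the dynein regulatory complex, averaged 232 ± 47.3 and Dnali1, an inner arm light chain, 289 ± 24. Dynlrb2 and Dynlrb1 form a further pair: Dynlrb1 was at 157 ± 46.3 CPM and did not pass the test against club cells (log2 -0.12, adjusted p = 0.6741).

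The radial spoke and central pair genes were higher in 24 of 24 tested, with a median of 7.09. Rsph4a, a spoke head protein, varied little between libraries, at 263, 290, 294 and 287 CPM. Rsph9, its neighbour in the spoke head, averaged 417 ± 60.1 CPM against 6.24 ± 2.07 in club cells. Spef2 and Hydin, of the central pair, averaged 359 ± 52.4 and 242 ± 51.9 CPM, with no UMI in club cells.

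Among tubulins and the proteins inside the axonemal microtubules, 26 of 30 were higher and 3 lower, with a median of 6.99. The 3 lower genes were the tubulins Tuba4a, Tubb2a and Tubb5. Tubb4b, the beta tubulin of axonemes, was at 2115 ± 156 CPM against 652 ± 117 in club cells (log2 1.22, adjusted p = 1.996e-05), while Tubb5 was at 19.0 ± 10.1 against 102 ± 45.2 (log2 -2.27, adjusted p = 4.601e-06). Tuba1a was at 2062 ± 304 CPM against 12.2 ± 5.58 (log2 6.94). The beta tubulins thus differed from club cells in opposite directions. Cfap53, Cfap126 and Tekt1, which line or brace the microtubules, averaged 601 ± 109, 797 ± 84.9 and 271 ± 19.9 CPM.

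Transport genes were called as often, by smaller differences. All 29 tested genes of intraflagellar transport and its motors were higher than in club cells, with a median of 3.27, and all 29 higher than in alveolar type 1 cells. Ift43 averaged 687 ± 82.0 CPM against 32.3 ± 7.69 in club cells, Traf3ip1 352 ± 6.28 against 4.59 ± 3.81, and the motor Dync2h1 277 ± 71.9 against 11.3 ± 4.15. Of the BBSome and transition zone genes, 28 of 29 were higher, with a median of 3.05; Tmem107 averaged 428 ± 71.1 CPM against 13 ± 4.81. Of the basal body genes, 18 of 23 were higher with a median of 2.41, among them Cep83 at 473 ± 63.8 CPM against 17.7 ± 11.1. Unlike the axonemal genes, no transport gene of the first list was without a UMI in club cells. Primary cilia, which many cell types carry, are built with the same transport machinery.

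Factors that assemble dyneins in the cytoplasm were higher in 12 of 12 tested, with a median of 4.12. Zmynd10 averaged 137 ± 18.1 CPM against 0.386 in club cells, and the chaperones Ruvbl1 and Ruvbl2 averaged 165 ± 38.6 and 184 ± 35.9, against 20.1 ± 8.99 and 13.8 ± 5.38. The enzymes that modify tubulin were higher in 8 of 10 tested. Ttll6, which adds glutamate chains to axonemal tubulin, was at 49.4, 82.7, 114 and 34.7 CPM, and Agbl2, which trims tubulin tails, averaged 89.8 ± 16.6.

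Regulators were mixed. Of 12 tested transcription factors linked to cilia and airways, 5 were higher and 2, Sox2 and Cebpg, lower. Rfx3 averaged 115 ± 58.1 CPM against 3.33 ± 2.85 in club cells (log2 4.4, adjusted p = 1.632e-08), Rfx2 94.7 ± 28.5 against 4.04 ± 3.33, and Trp73 64.6 ± 8.87 with no UMI in club cells. Nkx2-1, the lung lineage factor, was at 88.8 ± 19.1 CPM and did not pass the test against 96.0 ± 8.53 in club cells (log2 -0.33, adjusted p = 0.2809). It was lower than in alveolar type 1 cells, at 415 ± 35.5 (log2 -1.94, adjusted p = 1.628e-14).

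Of the genes of the earlier step, when a cell multiplies its centrioles, 6 of 8 tested were higher than in club cells and none lower, with a median of 4.33. The list summed to 443 to 644 CPM per library in ciliated cells and 52.5 to 95.6 in club cells. Several of its members were found in few cells. Of the 62 cells, Deup1, a component of the deuterosome on which centrioles are made, had a UMI in 17, Ccno in 10 and Mcidas in 1. Foxn4, Cdc20b and Gmnc had none. Myb, a factor of cells entering the ciliated fate, had a UMI in 40 of the 62 cells. The cell cycle genes Mki67 and Top2a had a UMI in 1 and 2 cells.

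**Figure D4:**
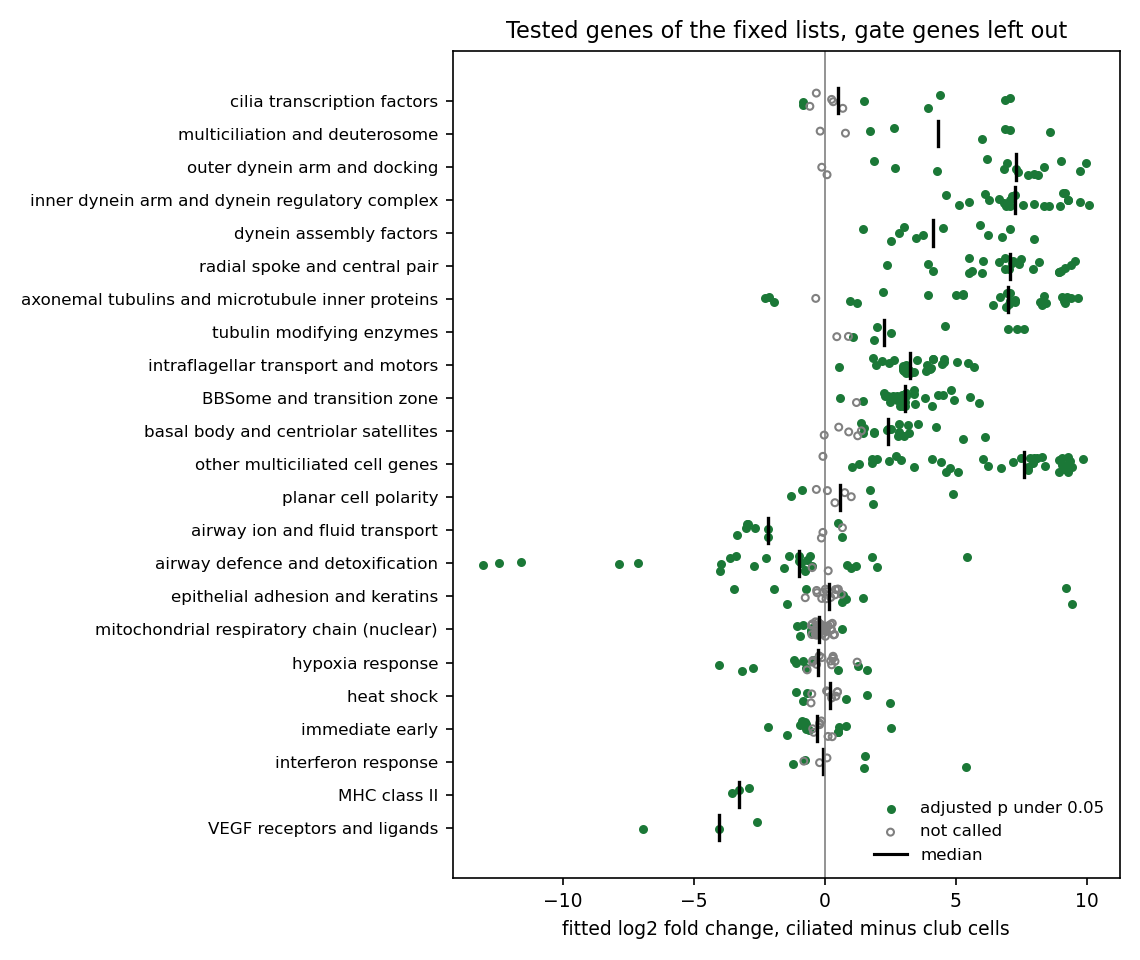
Fitted log2 fold change between ciliated and club cells (horizontal) for each tested gene of the 23 gene lists (rows), filled where the adjusted p was under 0.05, with the list's median as a black bar and gate genes left out. The axonemal lists have medians near 7, transport lists near 3, and the airway defence list has points on both sides of 0.

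Secretory genes were lower, several to no UMI at all. Scgb3a1, a secretoglobin, was at 1.09 ± 2.17 CPM against 24800 ± 6841 in club cells (log2 -13.78, adjusted p = 5.223e-15). Bpifa1 and Reg3g, secreted antimicrobial proteins, had no UMI in the 62 cells, at least 1394-fold and 616-fold lower than in club cells. Their levels in club cells were uneven, 4797 ± 4850 and 2339 ± 1405 CPM. The mucin Muc5b was at least 144-fold lower (569 ± 115 CPM in club cells), and the iron-binding Lcn2 at least 74.7-fold. Cxcl5 and Ccl20, which attract leukocytes, were at least 84.0-fold and 41.5-fold lower.

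Airway defence and detoxification split within the list: 6 of 29 tested genes were higher and 21 lower, a median of -0.97. Cbr2, a carbonyl reductase, stayed high in ciliated cells at 6366 CPM in WT A, 7866 in Vegfr2Y949F A, 8230 in WT B and 6973 in Vegfr2Y949F B. It was lower than the 11400 ± 1085 CPM of club cells (log2 -0.97, SE 0.24, adjusted p = 0.001837) and far above the 6.55 CPM of alveolar type 1 cells. The cytochrome Cyp2f2, a gene of the club gate and so with no test, was at 1374, 1625, 1487 and 1407 CPM against 10250 ± 1315 in club cells and 38.4 in all other cells. For 100 UMIs of Scgb1a1 the 62 ciliated cells held 109, 344, 69.7 and 432 UMIs of Cyp2f2 in the 4 libraries. Club cells held 0.638 to 0.852. The 4 cells rich in Scgb1a1, left out of the 62 by their Scgb1a1 count, held 0.514 to 1.4. Club cells were gated on both genes. The gap between the 62 cells and club cells thus follows in part from the choice of cells. The part of free RNA in the Cyp2f2 level was not tested.

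Other enzymes were higher in ciliated cells. Cyp2s1, a cytochrome that the club cells nearly lacked, was at 1045, 810, 1034 and 782 CPM, against 14.3 ± 1.52 in club cells (log2 5.43, SE 0.24, adjusted p = 1.513e-14) and 0.521 in alveolar type 1 cells. Prdx5, which removes peroxides, was at 1094 ± 197 CPM against 190 ± 9.82 (log2 2.00). Gstm1, a glutathione transferase, was at 1761 ± 216 against 709 ± 91.7 (log2 0.83, adjusted p = 0.0005314). Prdx6 was lower instead, at 811 ± 73.6 CPM against 3886 ± 263 in club cells and 5609 in alveolar type 1 cells.

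Ion and fluid transport genes were lower in 7 of 12 tested and higher in 2. Scnn1b and Scnn1g, subunits of the epithelial sodium channel, had no UMI in the 62 cells, against 226 ± 52.7 and 62.3 ± 27.6 CPM in club cells and 397 and 756 in alveolar type 1 cells. The third subunit, Scnn1a, was at 270 CPM against 221 in club cells. No fitted difference is given for it here, so no direction is taken from these levels. The chloride importer Slc12a2 was at 52.4 ± 40.3 against 346 ± 97.2 (log2 -2.97), and the chloride channel Ano1 at 12.1 ± 9.60 against 42.5 ± 16.6. Atp1b1, a beta chain of the sodium pump, was lower (345 ± 117 against 1427 ± 121 CPM, log2 -2.16).

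The VEGF system, in which the mutated receptor works, was at low counts in ciliated cells. Kdr had 3 UMIs in 3 of the 62 cells, at 0 CPM in both A libraries, 4.09 in WT B and 8.68 in Vegfr2Y949F B, against 307 CPM in all other cells. Its level was 83 ± 11.6 in club cells (log2 -2.60, adjusted p = 7.266e-06, with all 66 cells; log2 -4.77 without the 4 cells rich in Scgb1a1, which held 15 of the 18 Kdr UMIs). These counts do not show the substitution itself, so they do not check the genotype. Vegfa, the main ligand, had 10 UMIs in 9 of the 62 cells, 12.9 ± 6.73 CPM, against 346 ± 105 in club cells (log2 -4.03, adjusted p = 7.664e-11) and 3750 ± 68.8 in alveolar type 1 cells (log2 -7.17, adjusted p = 1.441e-33). The co-receptor Nrp1 had none.

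Genes that respond to low oxygen showed no common direction. Of 24 tested, 3 were higher than in club cells and 8 lower, with a median of -0.27. Bnip3, a mitochondrial protein, was higher at 114 ± 41.2 CPM against 27.2 ± 12.9 (log2 1.61, adjusted p = 0.0003027). Epas1, which encodes a hypoxia-inducible factor, was lower at 49.7 ± 29.9 against 542 ± 105 (log2 -3.17). The nuclear genes of the respiratory chain were called in 1 of 39 upwards and 6 downwards, beside 24.7% and 19.0% over all genes. With no library from normal air, an effect of hypoxia cannot be read from these values.

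Single genes outside the ciliary lists stood out too. Esm1, a secreted proteoglycan best known from endothelial tip cells (chr13:113209659-113218098, plus strand), was at 49.4 CPM in WT A, 154 in Vegfr2Y949F A, 77.6 in WT B and 200 in Vegfr2Y949F B. It had a UMI in 27 of the 62 cells and none in any club cell, at least 78.8-fold higher, and was at 0.128 CPM in alveolar type 1 cells and 5.36 in all other cells. The 6 endothelial markers summed to 115, 82.7, 53.1 and 34.7 CPM in the same libraries, with Cdh5 and Cldn5 among them limited by the gate. The part of endothelial RNA in the Esm1 level was not tested. The interferon-induced Usp18 was at 157 ± 38.2 CPM against 1.54 ± 3.09 in club cells (log2 5.39, adjusted p = 2.403e-09) and 25.2 ± 9.71 in alveolar type 1 cells. Of 8 interferon genes tested against club cells, Usp18, Ifit3 and Rtp4 were higher and Ifi27 and Bst2 lower. Against alveolar type 1 cells, 4 of 16 were higher and 12 lower, with a median of -2.03. MHC class II genes were lower in 3 of 3 tested, with Cd74 at 64.6 ± 17.1 CPM against 509 ± 473 in club cells and 3416 in all other cells. The summed class II level of club cells was uneven, at 145 CPM in WT A, 426 in Vegfr2Y949F A, 1717 in WT B and 693 in Vegfr2Y949F B, against 156, 136, 131 and 152 in ciliated cells, so that in WT A it was not lower in ciliated cells. The 6 alveolar type 2 markers in the same club cells summed to 2676, 9732, 43860 and 24670 CPM, and their part in the difference was not tested.

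Against alveolar type 1 cells, 2755 of 9174 genes were higher in ciliated cells (30%) and 2572 lower (28.0%). The ciliary lists were again higher, with 24 of 24 radial spoke and 23 of 23 inner arm genes. Genes of the gas exchange surface were lower: Pdpn and Col4a3, a surface glycoprotein and a basement membrane collagen, had no UMI in ciliated cells and were at 1080 ± 33.5 and 1366 ± 158 CPM in alveolar type 1 cells. The zinc carrier Slc39a8 had none against 852 ± 43.6, and the growth factor Bdnf none against 382 ± 38.6. Keratin and tight junction genes were higher in 15 of 22 and lower in 4, with Krt8 at 3362 ± 467 CPM against 540 ± 47.4 and Cldn3 at 1373 ± 254 against 19.9 ± 6.65.

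Stress genes were higher than in alveolar type 1 cells. The immediate early genes, which respond within minutes to handling or growth signals, were higher in 17 of 20, with a median of 2.72, and heat shock genes in 13 of 14, with a median of 1.28. Atf3 was at 3089 ± 522 CPM against 142 ± 99.8 in alveolar type 1 cells and 1554 ± 361 in club cells. Against club cells, immediate early genes were higher in 5 and lower in 8 of 20. The part of tissue digestion in these levels was not tested.

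Between the genotypes, no gene passed the test in ciliated cells: 0 of 3926 (0.0%) by edgeR, with 110 at an unadjusted p under 0.05, and 0 by DESeq2, with 29. The medians of the ciliary lists between Vegfr2Y949F and WT ran from -0.06 (cilia transcription factors, 8 genes) to 0.20 (centriole list, 5), beside 0.01 over all tested genes. On this log2 scale they were 0.02 for the outer arm (17 genes), 0.10 for the inner arm (21) and 0.10 for radial spokes (21). They were 0.06 for tubulins and inner proteins (26) and 0.09 for intraflagellar transport (29). Dynein assembly was at 0.15 (10) and other multiciliated cell genes at 0.14 (39, of which 30 positive and 9 negative). Without the 4 cells rich in Scgb1a1, the centriole, assembly and other multiciliated lists were at 0.11, 0.11 and 0.07. The BBSome and transition zone was then at -0.17. The summed outer arm level was 8208 CPM in WT A, 7747 in Vegfr2Y949F A, 7359 in WT B and 8466 in Vegfr2Y949F B. On simulated sums of this size, 74.5% of 200 genes changed 4-fold were recovered, with 10 false calls. The simulation gave every gene the same spread and held no single cells with outlying counts. It therefore does not give the recovery for genes such as Cyp2a5 or Scgb1a1 in the real sums. Smaller changes were not simulated. Since each library pools 2 mice, the p-values measure the spread between libraries only.

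Leaving out a library changed the count of calls: 15 without WT A, 19 without WT B, 24 without Vegfr2Y949F B and 0 without Vegfr2Y949F A. Scgb1a1 and other club and alveolar genes were among the calls in each of the 3 cases, in opposite directions without WT B (log2 5.94) and without Vegfr2Y949F B (log2 -8.99). WT B and Vegfr2Y949F B are the libraries with the 4 cells rich in Scgb1a1. The genes were not all of the club and alveolar kind. Hspb1, a small chaperone, was among them without WT B (log2 -2.40) and without Vegfr2Y949F B (log2 -1.98). Retnla was among them without WT A (log2 -6.73) and without Vegfr2Y949F B (log2 -6.09). Without the 4 cells rich in Scgb1a1, 1 gene was called, Scgb1a1 itself (log2 -2.14, adjusted p = 0.01305). The cells were left out by their Scgb1a1 count, so this call is drawn from the values that made the cut. It also rests on few cells. A single WT A cell held 101 of the 153 UMIs of Scgb1a1 in that library, and a single WT B cell 111 of 522.

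The 10 genes with the smallest p are given as values. Cyp2a5, a cytochrome of airway epithelium, was at 49.4 and 49.0 CPM in the WT libraries and 124 and 434 in the Vegfr2Y949F ones (log2 2.49, adjusted p = 0.231), and a single Vegfr2Y949F B cell held 89 of its 139 UMIs over the 62 cells. The log2 difference of Cyp2a5 was 1.36 without Vegfr2Y949F B (adjusted p = 0.654), and it passed the test without the low-count filter (adjusted p = 9.88e-06), without WT A (0.000258) and without WT B (0.0235). Esm1, given above, was higher in both Vegfr2Y949F libraries (log2 1.53, adjusted p = 0.412), with a UMI in 7 of 13 and 10 of 14 cells against 3 of 11 and 7 of 24 in WT. Aqp5, a water channel of alveolar type 1 cells, was at 107 and 0 CPM in WT and 29.6 and 8.68 in Vegfr2Y949F (log2 -2.42, adjusted p = 0.231). That fitted value rests on all 66 cells, and the levels on 62. Within set B, Aqp5 was lower in Vegfr2Y949F with the 4 cells rich in Scgb1a1. Without them it was at 0 CPM in WT B and 8.68 in Vegfr2Y949F B, so no ratio can be taken and the level is near the floor. Within set A, which held none of the 4 cells, it was lower in Vegfr2Y949F, at 29.6 against 107 CPM. The WT levels of Aqp5 over the 62 cells lay on both sides of the others, whereas Cyp2a5 and Esm1 did not overlap between genotypes. These genes were picked by small p between genotypes, so such separation follows in part from the choice. The share of all tested genes without overlap was not counted.

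The predicted gene Gm8797 was at 49.4 and 45 CPM in WT and 219 and 187 in Vegfr2Y949F (log2 1.56, adjusted p = 0.412). Foxq1, a forkhead factor, was at 313 and 184 CPM in WT and 101 and 104 in Vegfr2Y949F (log2 -1.36, adjusted p = 0.412). The other 5 genes of the 10 were Hspb1, Nr4a3, Tex9, Adig and Hspb8; of these Nr4a3 was at 65.8 and 127 CPM in WT and 17.7 and 26.1 in Vegfr2Y949F. Foxq1, Nr4a3 and Gm8797, picked in the same way, did not overlap between the genotypes either, and none passed the adjusted test with all 4 libraries. Gm8797 and Foxq1 passed it without Vegfr2Y949F B (adjusted p = 0.0198 and 0.0288).

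Heat shock levels were highest in a single WT library. Of 14 tested, 12 were lower in Vegfr2Y949F, with a median of -0.64 and none called with all 4 libraries. Hspb1, a small chaperone, was at 3183 CPM in WT A, 561 in Vegfr2Y949F A, 764 in WT B and 725 in Vegfr2Y949F B, and Hsp90aa1 at 12960, 7074, 4764 and 5167. Hspb1 passed the test without WT B (adjusted p = 1.73e-05), without Vegfr2Y949F B (0.0162) and without the low-count filter (0.00248). WT A was highest for 10 of the 14 genes, and without it the median was 0.03 with 6 of 14 lower. WT A and the genotype cannot be separated for these genes with 2 libraries a group.

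**Figure D5:**
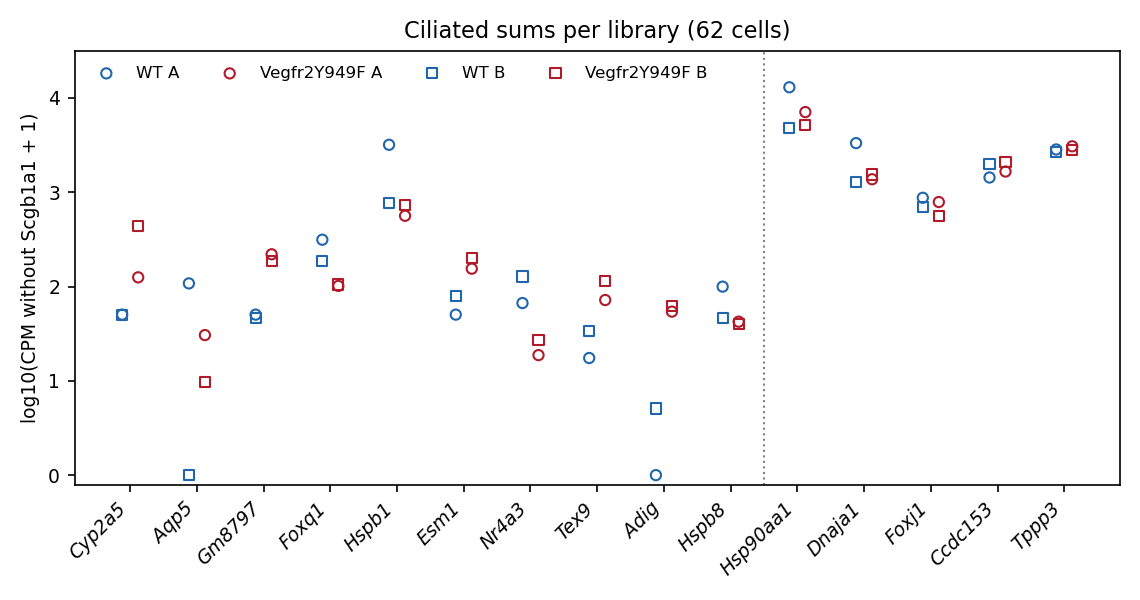
Levels per library (log10 of CPM without Scgb1a1 plus 1, 62 cells) of the 10 genes with the smallest p between genotypes, left of the dotted line, and of Hsp90aa1, Dnaja1 and 3 ciliary markers, right of it; blue WT, red Vegfr2Y949F, circles set A, squares set B. Hspb1 and Hsp90aa1 stand high in WT A alone, and the ciliary markers lie close together.

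No difference in the share of ciliated cells was detectable between genotypes with 2 libraries each. The share of kept cells was 0.0938% in WT A (11 of 11721, Wilson 95% interval 0.0524% to 0.168%), 0.1045% in Vegfr2Y949F A (0.0611% to 0.1787%), 0.2557% in WT B (0.1758% to 0.3718%) and 0.1483% in Vegfr2Y949F B (0.0899% to 0.2446%), intervals that cover counting error only. The mean was 0.175% ± 0.115 in WT and 0.126% ± 0.031 in Vegfr2Y949F (SD, n = 2), a difference of -0.0484 percentage points (exact two-sided permutation test, p = 1.0; 2 against 2 libraries cannot go below 0.333). WT A and WT B lay on both sides of the Vegfr2Y949F libraries. As a share of gated epithelial cells it was 5.55% ± 1.84 in WT and 4.51% ± 0.721 in Vegfr2Y949F. Digestion decides which cells come free of the airways, so these are shares of the suspension and not of the lung.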

How the data were processed

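Lung cells of 4 libraries (2 WT, 2 Vegfr2Y949F) were read with 10x Genomics droplets. The deposited matrices hold whole-number UMI counts per gene and barcode, not normalized, written by Cell Ranger 6.1.1 per the file headers; the submitters' processing notes list mm10 as the build and fastp, Seurat 4.1.0 and UMI-tools as tools. Aligner settings and the gene annotation are not given in the sources used here. Gene coordinates come from GENCODE M21 (31107 of 31253 identifiers matched).

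Barcodes with at least 500 genes, at least 1000 UMIs and under 15% mitochondrial UMIs were kept, and Scrublet scores (scanpy 1.11.5) were computed but no cell was removed on them, since its automatic threshold marked 0, 387, 64 and 0 cells. Club cells had at least 3 of Scgb1a1, Scgb3a2, Cyp2f2, Cldn10 and Aox3; alveolar type 1 cells at least 3 of Ager, Hopx, Rtkn2, Aqp5 and Cldn18 and at most 5 UMIs of Sftpc; both had under 2 ciliated gate genes and met the ciliated limits on Cdh5, Cldn5, Ptprc and Col1a2. "All other cells" includes the 20 cells with ciliary genes that those limits removed.

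UMI counts were summed per library and class and tested with edgeR 4.0.16 (R 4.3.3; quasi-likelihood, TMM, filterByExpr, Benjamini-Hochberg over all tested genes, calls at adjusted p under 0.05), with library as a term between classes and no term between genotypes; DESeq2 1.42.0 was an alternative. Gate genes are left out of counts of calls. Adjusted p-values are edgeR's unless DESeq2 is named. The steps were tested on simulated data with the same spread for every gene: 85.0% of 200 genes changed 4-fold were recovered against club cells, with 5 false calls. Named genes were those called with the largest differences in the same direction in all 4 libraries, the 10 smallest p between genotypes, and the members with the highest levels in each list; Esm1, Usp18, Cyp2s1 and further list members were chosen after their values were seen. The members and lists were chosen with earlier results of these data known. Promoter windows are RefSeq's, of GRCm38.p6. Some items are not reported here.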

Additional observations from a re-analysis of the deposited data

How the results depend on the processing

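The count of genes called between genotypes was 0 with all 66 cells and rose to 14 of 13344 genes (3 higher, 11 lower) without a low-count filter and to 1 without the 4 cells rich in Scgb1a1, an alternative chosen after seeing the data; leaving out each library gave 0 to 24. With the set letter as a replicate block it stayed 0, with 160 genes at an unadjusted p under 0.05. What the letter marks is not stated in the labels; deviations of same-lettered libraries correlated at 0.27 over 3947 genes with all cells and 0.07 over 3421 without the 4 cells. The share of ciliated cells, as a share of gated epithelial cells, differed by -1.04 percentage points (exact permutation p = 0.667). Counts of calls against club and alveolar type 1 cells stayed within 1.5 times under every alternative run, for example 2281 and 4178 by DESeq2. The 11 ciliated cells of WT A gave 121738 UMIs in all, and changes below the 4-fold size simulated were not tested for recovery.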
